A study of Homo sapiens with 4 samples.

Results

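The collagen genes are the rows of the deposited table whose symbol is COL, a number, A and a number. There are 44 among 57820 rows, with no symbol repeated, and 25 had enough reads to be tested. The study sequenced RNA of the U87 cell line, derived from a human glioma, in 2 groups of 2 libraries each. The shGlud1 cells carried a short hairpin RNA that knocks down GLUD1, the mitochondrial glutamate dehydrogenase gene, and the shNT cells carried a control hairpin. All 4 libraries came from cells held for 6 h in low glucose after growth in medium with bovine calf serum. The labels do not say how many hairpin sequences or clones were used, nor whether the libraries stem from separate cultures. The p-values therefore rest on differences among these 4 libraries, and that spread may be only technical.

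Collagens are secreted or membrane proteins whose chains wind into triple helices of repeated glycine triplets. Fibrillar collagens build the fibres of connective tissue, collagen IV forms the sheet of basement membranes, and collagen VI forms beaded microfilaments around cells. The remaining types sit on fibrils, anchor basement membranes, form other networks or span the plasma membrane. New chains are hydroxylated, glycosylated and folded in the endoplasmic reticulum before export, trimming and cross-linking outside the cell. Glioma cells can make their own collagen matrix, and brain tissue holds little fibrillar collagen outside its vessels and meninges.

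The promoters of a few members are shown first, in pairs of related genes. COL6A2 and COL6A3 encode chains of the same protein and moved in opposite directions. COL4A5 and COL4A6 are transcribed away from each other from start sites 380 bases apart on chromosome X, and both rose before the length trend described later was removed. Of the 44 collagen genes 32 had a promoter in the RefSeq table (GRCh38.p14). Each sequence is the 250 bases before the annotated start, 5′ to 3′ on the gene's strand. Capitals mark the TATA box (TATAAA), the CAAT box (as CCAAT) and the GC box (as GGGCGG) on either strand, and none of the marked motifs overlap.
COL6A2 (chr21:46097862-46098111, plus strand): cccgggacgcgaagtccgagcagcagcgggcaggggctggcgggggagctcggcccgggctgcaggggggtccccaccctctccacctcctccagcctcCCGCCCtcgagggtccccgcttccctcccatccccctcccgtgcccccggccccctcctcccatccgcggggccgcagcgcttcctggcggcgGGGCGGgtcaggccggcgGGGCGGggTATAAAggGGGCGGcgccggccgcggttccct
COL6A3 (chr2:237414165-237414414, minus strand): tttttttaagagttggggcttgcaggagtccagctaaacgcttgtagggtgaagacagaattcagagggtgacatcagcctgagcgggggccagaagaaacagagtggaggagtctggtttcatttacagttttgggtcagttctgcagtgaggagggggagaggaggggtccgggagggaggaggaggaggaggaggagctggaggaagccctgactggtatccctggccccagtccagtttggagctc
COL4A5 (chrX:108439588-108439837, plus strand): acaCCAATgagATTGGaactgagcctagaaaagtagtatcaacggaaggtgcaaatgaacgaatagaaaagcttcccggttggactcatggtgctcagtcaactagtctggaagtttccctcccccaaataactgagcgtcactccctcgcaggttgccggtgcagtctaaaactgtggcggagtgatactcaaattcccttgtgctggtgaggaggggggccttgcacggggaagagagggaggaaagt
COL4A6 (chrX:108439459-108439708, minus strand): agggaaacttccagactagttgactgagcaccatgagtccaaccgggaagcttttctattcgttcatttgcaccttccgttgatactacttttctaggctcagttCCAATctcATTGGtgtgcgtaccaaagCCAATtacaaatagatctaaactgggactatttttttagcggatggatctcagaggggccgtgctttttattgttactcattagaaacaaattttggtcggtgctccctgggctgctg

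The COL6A2 promoter held 4 GC boxes and a TATAAA that begins 32 bases before the start, with 28 CG dinucleotides and a GC share of 79.6%. The COL6A3 promoter held none of the 3 motifs, 3 CG dinucleotides and a GC share of 56.0%. The median over all promoters was 11 CG dinucleotides. Among 35116 promoters of the table, 10.7% held TATAAA, 32.0% held CCAAT and 42.6% held GGGCGG in the same window. The COL4A5 and COL4A6 windows share 121 bases (chrX:108439588-108439708), and the shared stretch holds a CCAAT on each strand. The COL4A6 window shown holds a further CCAAT outside it. A further COL4A6 start in the table, at 108438422, has a window with no CCAAT and 1 GGGCGG and lies farther from COL4A5, so the distance and the shared bases refer to the start site shown. These matches describe letters and show neither binding nor a cause.

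The deposited expected counts, estimated read counts per gene, summed to 17407149 and 18537314 in the shGlud1 libraries and to 16546849 and 18118503 in the shNT libraries. GLUD1 was at 34.0 and 44.5 CPM in the shGlud1 libraries, against 78.1 and 76.5 CPM in the shNT libraries. By edgeR's quasi-likelihood test it fell, with a log2 fold change of -0.98, a standard error (SE) of 0.13 and adjusted p = 1.26e-12. The fall of GLUD1 was smaller, at -0.45 (adjusted p = 0.003, edgeR), when libraries were scaled by total counts alone. CPM, the unit of level used throughout, are counts relative to library size after scaling with TMM factors. Every fold change is given as log2 of shGlud1 over shNT. A gene was called when its Benjamini-Hochberg adjusted p over all 14616 genes tested was under 0.05. By that rule 61.0% of all genes were called, 31.9% as higher and 29.1% as lower. Scaled by total counts alone, 65.6% were called, 51.9% as higher and 13.7% as lower, and the median fold change of all genes moved to 0.57, against 0.06 with TMM factors. Fold change also followed transcript length (Spearman correlation 0.447 across 14266 genes, which are not independent replicates), as did the ratio of shGlud1 replicate 2 to replicate 1 (0.332). Of the 25 tested collagen genes 22 have a longest transcript above the median of tested genes (3374.5 nt). Values with this trend removed are therefore given beside the collagen calls that they change and beside some other results.

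Cell identity was checked with marker lists. VIM, an intermediate filament gene, was at 4436 and 4915 CPM in the shGlud1 libraries and at 2425 and 2279 CPM in the shNT libraries. The glial and neural progenitor markers GFAP, OLIG2, S100B and SOX2 were all under 0.4 CPM in every library, with SOX2 at 0 in all 4. NES, an intermediate filament gene of neural progenitors, was at 29.8 and 28.5 CPM in the shGlud1 libraries, against 8.06 and 7.19 CPM in the shNT libraries, and was called as higher (1.93, SE 0.18, adjusted p = 3.74e-26, edgeR). The list of 7, nearly all of it VIM and CD44, summed to 5210 and 5738 CPM in the shGlud1 libraries and to 3157 and 3012 CPM in the shNT libraries. The 7 fibroblast and mural markers summed to 68.3 and 66.4 CPM in the shGlud1 libraries and to 51.6 and 53.2 CPM in the shNT libraries, with ACTA2 and THY1 called as higher and LUM as lower. The 4 epithelial markers summed to 14.2 and 12.9 CPM against 53.5 and 57.6 CPM, nearly all from KRT14. The 4 leukocyte markers summed to 296 and 282 CPM in shGlud1 against 407 and 364 CPM in shNT, mostly from the lysosomal gene CD68. AIF1 was at 0 in all 4 libraries and PTPRC had 2 counts in all. CSF1R, the remaining marker, was present in every library, from 6.15 CPM in shGlud1 replicate 1 to 8.42 CPM in shNT replicate 1. CSF1R was not called (-0.25, SE 0.22, adjusted p = 0.34, edgeR). The 3 endothelial markers found in the table summed to at most 1.75 CPM in any library. Whether these shifts have a part in the collagen results was not tested.

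Of the 25 tested collagen genes 10 rose and 6 fell. The share called, 64.0%, lies near the 61.0% of all genes, so the number of calls is not particular to collagens. In 22 of the 25 (88.0%) the libraries of the groups did not overlap, against 81.0% of all genes. The median fold change of the tested members was 0.27, against 0.06 for all genes. After removal of the length trend 12 were called, 5 higher and 7 lower, against 56.1% of all genes, and the median was -0.11 against 0.12. That trend was fitted on the longest transcript. With median transcript length, a form added after seeing the data, 16 were called, 10 higher and 6 lower, against 8580 of 14616 genes. Under total counts 18 were called, 15 higher and 3 lower, against 65.6% of all genes, and the median was 0.78 against 0.57. Under each of these scalings COL1A2, COL5A2, COL6A3, COL12A1 and COL13A1 rose and COL6A2, COL20A1 and COL26A1 fell. COL20A1 and COL26A1 passed the filter only through their shNT counts.

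**Figure D1:**
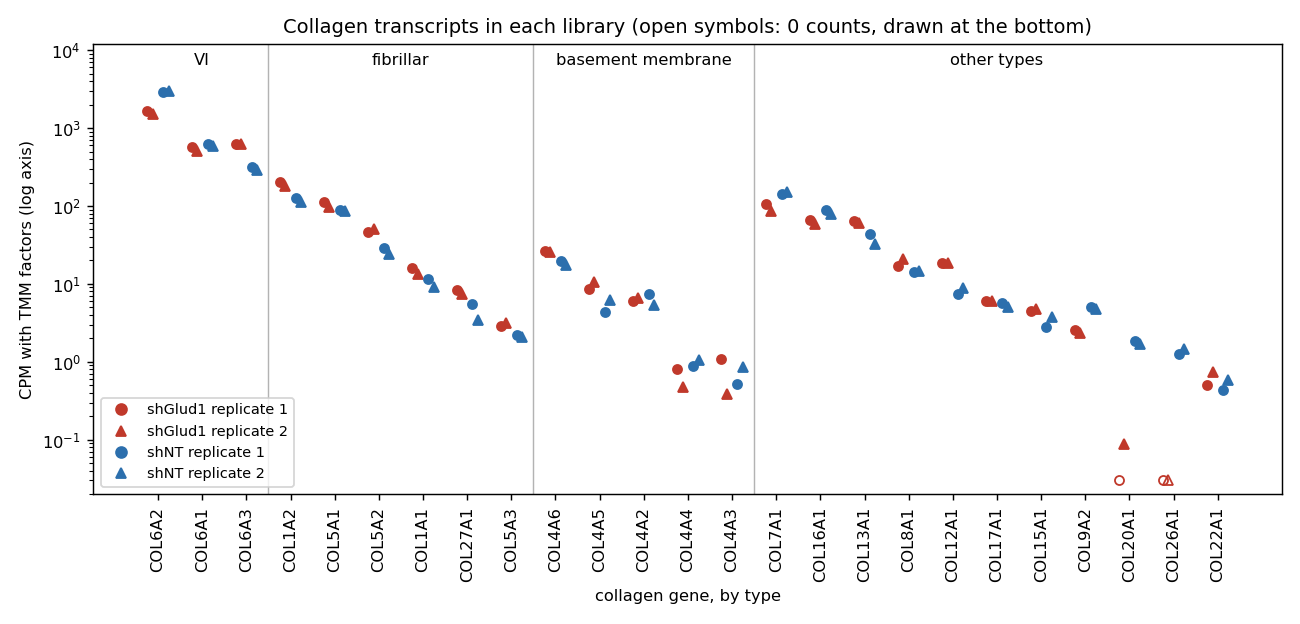
CPM of the 25 tested collagen genes (log axis) in each library, by type and falling mean level, with shGlud1 in red and shNT in blue. COL6A2 is the most abundant in all 4 libraries, at 1662 and 1519 CPM in shGlud1 and at 2917 and 3024 CPM in shNT.

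Collagen VI made up most of the collagen reads, and its chains moved apart. COL6A2 (ENSG00000142173, GRCh38 chromosome 21, 46098097 to 46132849) encodes a chain of the collagen VI monomer. It was at 1662 and 1519 CPM in the shGlud1 libraries, against 2917 and 3024 CPM in the shNT libraries. The groups did not overlap, and COL6A2 fell (-0.90, SE 0.17, adjusted p = 3.09e-07, edgeR). Its fall was -0.38 with total counts (adjusted p = 0.00314). In bulk RNA, fewer cells that make a transcript and less of it per cell cannot be told apart.

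COL6A3 (ENSG00000163359, chromosome 2, 237324003 to 237414375) encodes the longest of the common collagen VI chains, whose cleaved end circulates as endotrophin. It was at 622 and 626 CPM in the shGlud1 libraries, against 313 and 293 CPM in the shNT libraries. Both shGlud1 libraries lay above both shNT libraries, and COL6A3 rose (1.04, SE 0.15, adjusted p = 1.13e-11, edgeR). With the length trend removed the rise was 0.52 (adjusted p = 1.68e-05). COL6A1 (ENSG00000142156, chromosome 21, 45981737 to 46005050), the neighbour of COL6A2 on the same strand, was at 564 and 511 CPM in the shGlud1 libraries and at 622 and 592 CPM in the shNT libraries. COL6A1 was not called (-0.18, SE 0.15, adjusted p = 0.301, edgeR), and it was called as lower with the length trend removed (-0.30, adjusted p = 0.0175) or without shGlud1 replicate 1 (-0.27, adjusted p = 0.0374) and as higher with total counts (0.34, adjusted p = 0.00527). COL6A5 and COL6A6, which encode alternative chains, had 0 counts in all 4 libraries, which allows up to 3 counts in each.

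Ratios between chains within a library do not depend on how libraries are scaled. Per kb of longest transcript, COL6A3 stood to COL6A2 as 0.121 and 0.133 in the shGlud1 libraries, against 0.0345 and 0.0312 in the shNT libraries. The mean ratio was 0.127 ± 0.00859 in shGlud1 and 0.0329 ± 0.00234 in shNT (SD, n = 2 each), a 3.85-fold higher ratio in shGlud1. On the log2 scale the difference was 1.95, or 1.43 with the length trend removed. The ratio of COL6A1 to COL6A2 was 0.277 and 0.275 in shGlud1 libraries, against 0.174 and 0.160 in shNT libraries. With 2 libraries a group an exact two-sided permutation test cannot give a p below 0.333, so these ratios are described without a test. The groups did not overlap in either ratio. COL6A2 remained the most abundant chain per kb, at a mean of 460 CPM per kb in shGlud1 and 858 CPM per kb in shNT, followed by COL6A1 at 127 and 143 and COL6A3 at 58.1 and 28.2 CPM per kb in the same order of groups.

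**Figure D2:**
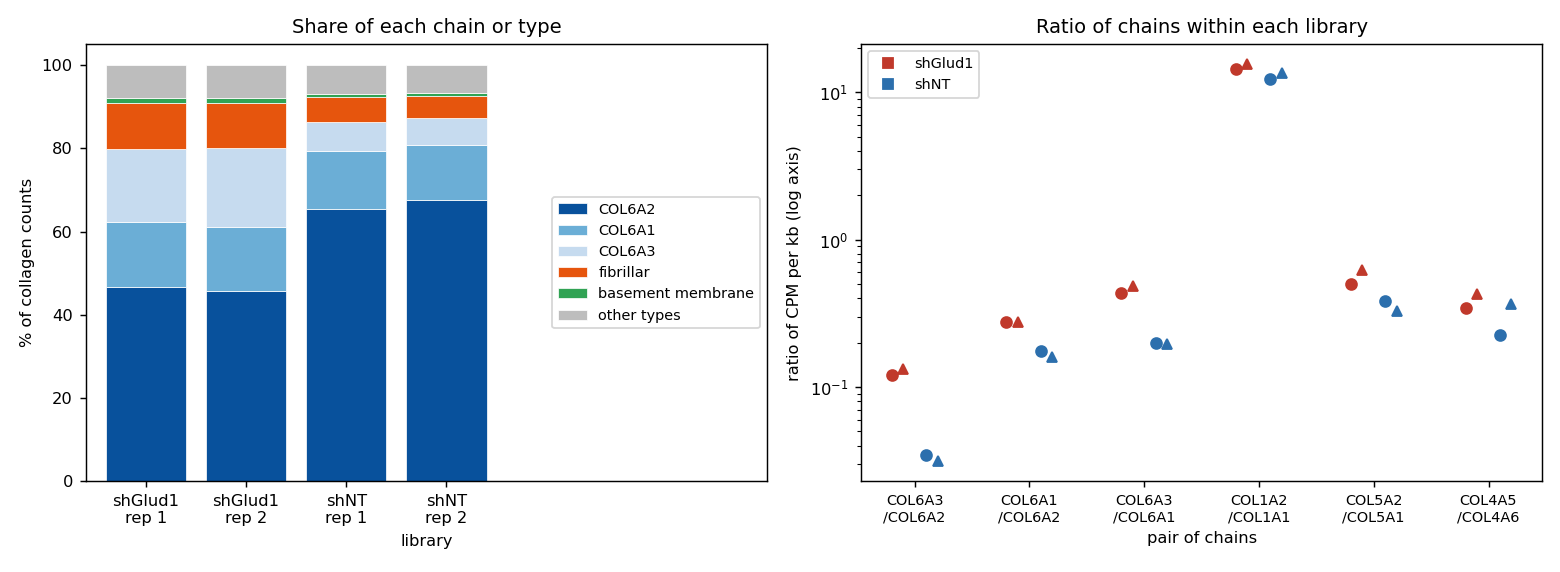
Left, share of all collagen counts (%) taken by each collagen VI chain and each other type in each library, with shGlud1 left of shNT. Right, ratio of CPM per kb between pairs of chains (log axis) in each library, circles for replicate 1 and triangles for replicate 2. COL6A2 takes 46.6% and 45.8% in shGlud1 and 65.4% and 67.5% in shNT.

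The make-up of the collagen reads differed between the groups. COL6A2 took 46.6% and 45.8% of collagen counts in the shGlud1 libraries, against 65.4% and 67.5% in the shNT libraries. COL6A3 took 17.5% and 18.9% in shGlud1, against 7.01% and 6.54% in shNT. Collagen VI as a whole took 79.9% and 80.1% in shGlud1 against 86.3% and 87.2% in shNT, and fibrillar collagens took 11.0% and 10.7% in shGlud1 against 5.95% and 5.28% in shNT. The length trend was not removed from these shares. The longest transcripts of COL6A3 (10749 nt) and of the tested fibrillar genes (median 6904 nt) exceed that of COL6A2 (3461 nt). All 44 genes together summed to 3440 ± 178 CPM in shGlud1 and 4473 ± 12.8 CPM in shNT (SD, n = 2 each), a log2 ratio of -0.38. This direction depends on the scaling, since as a share of all counts they took 0.410% and 0.412% in shGlud1 and 0.368% and 0.379% in shNT.

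Among the 11 fibrillar genes 6 were tested, of which 4 rose and 0 fell (median 0.60), against 31.9% of all genes called as higher and 29.1% as lower. After removal of the length trend 2 rose and 0 fell (median 0.25), against 32.2% and 23.9% of all genes in those directions. With total counts all 6 rose, against 51.9% of all genes. Collagen I is the main fibre protein of skin, tendon and bone. COL1A2 (ENSG00000164692, chromosome 7, 94394561 to 94431232), which encodes its alpha 2 chain, was at 205 and 183 CPM in the shGlud1 libraries, against 127 and 111 CPM in the shNT libraries. The groups did not overlap, and COL1A2 rose (0.71, SE 0.13, adjusted p = 4.75e-07, edgeR; 0.36 and adjusted p = 0.00411 with the length trend removed).

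COL1A1 (ENSG00000108821, chromosome 17, 50183289 to 50201632), which encodes the alpha 1 chain that is the more numerous in the usual collagen I trimer, was far lower. It was at 16.1 and 13.2 CPM in the shGlud1 libraries, against 11.5 and 9.21 CPM in the shNT libraries. COL1A1 was called as higher (0.50, SE 0.19, adjusted p = 0.0149, edgeR), a call that ended with DESeq2 (adjusted p = 0.110), with the length trend removed (0.09, adjusted p = 0.695), without shNT replicate 2 (0.34, adjusted p = 0.262) and without shGlud1 replicate 1 (0.34, adjusted p = 0.152). With the trend on median rather than longest transcript length removed, COL1A1 stayed called as higher (0.45, adjusted p = 0.0278, edgeR). Per kb, COL1A2 exceeded COL1A1 14.3-fold and 15.6-fold in the shGlud1 libraries and 12.4-fold and 13.5-fold in the shNT libraries. The excess of COL1A2 over COL1A1 was thus present in all 4 libraries.

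Collagen V copolymerises with collagen I and limits fibril width. COL5A2 (ENSG00000204262, chromosome 2, 189031896 to 189225312) was at 46.9 and 50.6 CPM in the shGlud1 libraries, against 28.7 and 23.9 CPM in the shNT libraries. It rose (0.89, SE 0.14, adjusted p = 9.93e-10, edgeR), by 0.46 with the length trend removed. COL5A1 (ENSG00000130635, chromosome 9, 134641774 to 134844843), the more abundant chain, was at 111 and 97.9 CPM in the shGlud1 libraries and at 89.8 and 86.8 CPM in the shNT libraries and was not called (0.24, SE 0.13, adjusted p = 0.0887, edgeR). Its sign turned with the length trend removed (-0.23, adjusted p = 0.0818). It was called as higher with total counts (0.76), without shGlud1 replicate 2 (0.34, adjusted p = 0.0134) and with the trend on median transcript length removed (0.31, adjusted p = 0.0289).

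COL5A2 to COL5A1 stood as 0.503 and 0.619 per kb in shGlud1, against 0.383 and 0.329 in shNT. The groups did not overlap in this ratio. COL5A3, which encodes a further chain, was at 2.90 and 3.17 CPM in shGlud1 and at 2.20 and 2.09 CPM in shNT and was not called (0.50, SE 0.33, adjusted p = 0.184, edgeR), except as higher with total counts (1.02). COL27A1, which encodes a fibrillar collagen of developing cartilage, was at 8.40 and 7.38 CPM in shGlud1 against 5.57 and 3.40 CPM in shNT and rose (0.82, SE 0.24, adjusted p = 0.00148, edgeR), a call that ended with the length trend removed (0.36, adjusted p = 0.172) and without shNT replicate 2 (0.50, adjusted p = 0.171). With the trend on median transcript length removed instead, COL27A1 stayed called as higher (0.55, adjusted p = 0.0358, edgeR). COL2A1, COL3A1, COL11A1, COL11A2 and COL24A1 were too low to be tested.

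**Figure D3:**
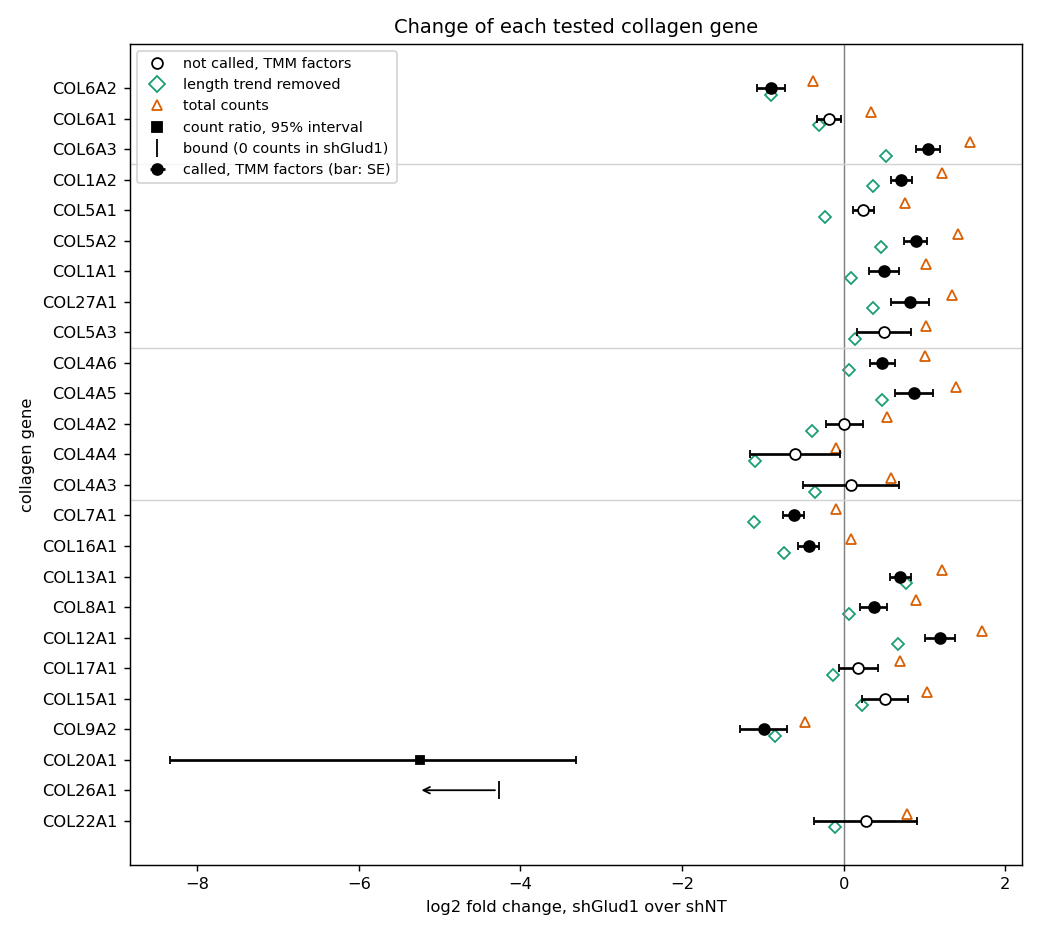
Log2 fold change, shGlud1 over shNT, of each tested collagen gene with its SE (filled circle called, open circle not), with the values after removal of the length trend (diamonds) and with total counts (triangles). COL20A1 is a count ratio with its 95% interval and COL26A1 a bound; COL6A2 lies left of 0 and COL6A3 right of 0 in all 3 forms.

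Of the 6 collagen IV genes 5 were tested, 2 rose and 0 fell, a called share of 40.0% against 61.0% of all genes. COL4A6 (ENSG00000197565, chromosome X, 108155607 to 108439497), a chain of smooth muscle and some epithelial basement membranes, was at 26.4 and 25.5 CPM in the shGlud1 libraries, against 19.9 and 17.4 CPM in the shNT libraries. COL4A5 (ENSG00000188153, chromosome X, 108439844 to 108697545), the gene most often mutated in Alport syndrome, was at 8.70 and 10.5 CPM in the shGlud1 libraries, against 4.32 and 6.14 CPM in the shNT libraries. In neither did the groups overlap. Both rose, COL4A6 with a fold change of 0.48 (SE 0.16, adjusted p = 0.00465, edgeR) and COL4A5 with 0.87 (SE 0.23, adjusted p = 0.000321, edgeR).

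With the length trend removed neither was called, COL4A6 at 0.06 (adjusted p = 0.748) and COL4A5 at 0.47 (adjusted p = 0.0514). COL4A5 was also not called without shNT replicate 1 (0.64, adjusted p = 0.0588), nor COL4A6 without shNT replicate 2 (0.38, adjusted p = 0.141). With the trend on median rather than longest transcript length removed, COL4A5 was called as higher (1.01, adjusted p = 1.51e-05, edgeR). COL4A6 was not (-0.11, adjusted p = 0.571, edgeR). This pair has the divergent promoters already printed. Per kb, COL4A5 stood to COL4A6 as 0.342 and 0.427 in shGlud1 and as 0.226 and 0.368 in shNT, where the groups overlapped.

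COL4A2, which with COL4A1 makes the most widespread collagen IV trimer, was at 5.95 and 6.68 CPM in shGlud1 and at 7.33 and 5.29 CPM in shNT (0.01, SE 0.23, adjusted p = 0.978, edgeR). COL4A1, its partner gene across a shared promoter region on chromosome 13, had 0 and 2 counts in shGlud1 and 0 and 1 in shNT, although COL4A2 had 119 and 154 counts in shGlud1 and 100 and 81 in shNT. The genes overlap on opposite strands, the kit does not mark strand, and the counting program is not given in the sources used here. COL4A3 (0.09, SE 0.59) and COL4A4 (-0.60, SE 0.56), chains of kidney, lung and inner ear basement membranes, had 7 to 22 counts in a library and were not called. An antisense gene within COL4A3 had 27 counts against its 51, so reads of COL4A3 are uncertain. The summed level of collagen IV was 43.3 ± 0.419 CPM in shGlud1 and 31.9 ± 1.54 CPM in shNT (SD, n = 2 each). Most of it was COL4A6, at a mean of 26.0 CPM in shGlud1 and 18.7 CPM in shNT. The length trend was not removed from the sum, and COL4A6 was at 0.06 once that trend was removed.

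Among the other 22 genes 11 were tested, of which 3 rose and 5 fell, against 31.9% of all genes called as higher and 29.1% as lower. The balance turned under total counts, where 5 rose and 2 fell, against 51.9% and 13.7% of all genes. After removal of the length trend 2 rose and 5 fell, against 32.2% and 23.9% of all genes. In each form the falls include COL20A1 and COL26A1, which passed the filter only through their shNT counts. COL7A1 (ENSG00000114270, chromosome 3, 48564073 to 48595267), which encodes the anchoring fibrils that fasten epithelial basement membranes to the tissue below, was at 105 and 85.6 CPM in the shGlud1 libraries, against 141 and 151 CPM in the shNT libraries. It fell (-0.62, SE 0.13, adjusted p = 8e-06, edgeR), by 1.11 with the length trend removed, and was at -0.10 with total counts (adjusted p = 0.429), which ended the call. With TMM factors the groups did not overlap.

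FACIT collagens attach to the surface of fibrils. COL12A1 (ENSG00000111799, chromosome 6, 75084326 to 75206051), found on collagen I fibrils of tendon and ligament, had the largest rise of the 25 with TMM factors, and COL13A1 had it after removal of the length trend. It was at 18.5 and 18.4 CPM in the shGlud1 libraries, against 7.33 and 8.76 CPM in the shNT libraries (1.19, SE 0.19, adjusted p = 1.64e-09, edgeR), and its rise was 0.67 with the length trend removed (adjusted p = 0.000699). COL16A1, the most abundant FACIT gene here, was at 65.5 and 59.2 CPM in shGlud1 against 88.0 and 79.6 CPM in shNT. It fell (-0.43, SE 0.13, adjusted p = 0.00222, edgeR), while with total counts it was at 0.09 (adjusted p = 0.526), and the call also ended without shNT replicate 1 (-0.35, adjusted p = 0.109). COL9A2, a chain of the cartilage collagen IX, was at 2.55 and 2.34 CPM in shGlud1 against 4.98 and 4.77 CPM in shNT and fell (-0.99, SE 0.29, adjusted p = 0.00149, edgeR; -0.48 and adjusted p = 0.163 with total counts).

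COL20A1, also of the FACIT group, had 0 and 2 counts in the shGlud1 libraries, against 25 and 26 in the shNT libraries. The level was 37.9-fold lower in shGlud1, with an exact 95% interval of 9.97 to 322 that covers counting error only (adjusted p = 9.67e-10, edgeR). The fitted change was -5.06, and -4.25 without shGlud1 replicate 1. Without shGlud1 replicate 2 only a shGlud1 library at 0 counts was left, so the size of this fall rests on 2 counts in a single library. COL26A1, a short collagen first described in mouse testis and ovary, had 0 counts in both shGlud1 libraries, against 17 and 22 in the shNT libraries. Taking 3 counts over the group as the limit, it was at least 19.3-fold lower in shGlud1 (adjusted p = 1.02e-09, edgeR). These 2 members had the largest falls of the family, from low levels. Both passed the filter only through their shNT counts, so their p-values and rank add no separate support for a fall. COL22A1, a FACIT gene of muscle and tendon junctions, had 6 to 17 counts in a library and was not called (0.27, SE 0.64, adjusted p = 0.730, edgeR).

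Of the transmembrane collagens, COL13A1 (ENSG00000197467, chromosome 10, 69801867 to 69964275), found at cell adhesion sites and at the neuromuscular junction, was at 63.7 and 61.2 CPM in the shGlud1 libraries, against 44.0 and 32.7 CPM in the shNT libraries. It rose (0.70, SE 0.13, adjusted p = 5.31e-07, edgeR), and the rise was 0.77 with the length trend removed. Its mean level per kb was 19.6 CPM in shGlud1 and 12.0 CPM in shNT. COL17A1, a hemidesmosome protein of epithelia, was at 6.10 and 6.03 CPM in shGlud1 and at 5.71 and 5.03 CPM in shNT and was not called (0.18, SE 0.24, adjusted p = 0.539, edgeR), except as higher with total counts (0.70).

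COL8A1, which encodes a network collagen of vessel walls and the eye, was at 16.9 and 20.6 CPM in shGlud1 against 14.4 and 14.5 CPM in shNT. Its call as higher was marginal (0.37, SE 0.17, adjusted p = 0.0478, edgeR) and ended with RLE factors, DESeq2, limma-voom, the filter of 1 CPM and the length trend removed (0.06), and without shNT replicate 1 (adjusted p = 0.190), shNT replicate 2 (0.187) or shGlud1 replicate 2 (0.310). With the trend on median transcript length removed instead, COL8A1 stayed called as higher (0.51, adjusted p = 0.00539, edgeR). COL15A1, a proteoglycan collagen next to basement membranes, was at 4.55 and 4.77 CPM in shGlud1 and at 2.78 and 3.72 CPM in shNT (0.51, SE 0.28, adjusted p = 0.0976, edgeR), and was called as higher with total counts (1.03). The 19 members that were too low to be tested had at most 10 counts in any library. Besides those named above these were COL8A2, COL9A1, COL9A3, COL10A1, COL14A1, COL18A1, COL19A1, COL21A1, COL23A1, COL25A1 and COL28A1. COL25A1 had 0 counts throughout.

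The machinery that makes collagen was covered by a list of 50 genes, of which 45 were tested. Of these 15 rose and 14 fell, a called share of 64.4% against 61.0% of all genes, with a median of 0.00 against 0.06. With total counts 26 rose and 6 fell. After removal of the length trend 14 rose and 15 fell, against 32.2% and 23.9% of all genes. Of the 7 chaperones and helpers, TMEM38B among them, 0 rose and 4 fell, against 31.9% and 29.1% of all genes. Of the 8 genes listed under export, which include the transcription factor gene CREB3L1, 6 rose and 1 fell. With total counts 3 chaperones rose and 3 fell, and 6 export genes rose and 0 fell. The shares of all genes were then 51.9% and 13.7%.

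SERPINH1 encodes HSP47, the collagen-specific chaperone of the endoplasmic reticulum. It was at 135 and 133 CPM in the shGlud1 libraries, against 678 and 611 CPM in the shNT libraries, and had the largest fall among the chaperones (-2.27, SE 0.15, adjusted p = 5.82e-49, edgeR). PPIB, the prolyl isomerase cyclophilin B, was at 754 and 668 CPM in shGlud1 against 2270 and 2042 CPM in shNT and fell (-1.60, SE 0.16; -0.93 with the length trend removed). FKBP10 (-1.30) and TMEM38B (-0.41), a cation channel gene of the endoplasmic reticulum, completed the chaperones and helpers that fell. TMEM38B was at 0.12 with total counts, a sign change. CRTAP, LEPREL4 and FKBP14 were not called, but all 3 were called as higher with total counts, and CRTAP as lower with the length trend removed (-0.41).

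Among the 10 hydroxylase genes 4 rose and 5 fell, so 9 of 10 were called, against 61.0% of all genes. The balance turned under total counts, where 5 rose and 2 fell, against 51.9% and 13.7% of all genes. P4HA2, uncalled by the TMM fit (-0.25, adjusted p = 0.0946, edgeR), was then called as higher (0.27, adjusted p = 0.0245). P4HA1, a catalytic subunit of prolyl 4-hydroxylase, was at 26.8 and 37.5 CPM in shGlud1 against 18.1 and 22.2 CPM in shNT and rose (0.67, SE 0.15). Its partner subunit P4HB, the protein disulphide isomerase gene, was at 1119 and 1167 CPM in shGlud1 against 2092 and 1828 CPM in shNT and fell (-0.78, SE 0.16, or -0.56 with the length trend removed). LEPREL1 (0.68) and LEPRE1 (0.33), which encode prolyl 3-hydroxylases, and PLOD2 (0.48), whose lysyl hydroxylase acts on the ends of fibrillar chains, also rose. PLOD1 (-0.64), PLOD3 (-0.56), LEPREL2 (-0.48) and P4HA3 (-2.13, with at most 1.76 CPM in any library) fell. P4HA3 had 13 and 2 counts in shGlud1 against 19 and 27 in shNT and passed the filter only through its shNT counts. Its call, counted among the 5 falls, therefore adds no separate support for a fall. With total counts PLOD1 and PLOD3 were at -0.12 and -0.04 and LEPREL2 at 0.04. As background, collagen hydroxylases use alpha-ketoglutarate, which is also a product of the GLUD1 reaction.

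Collagen is too large for ordinary transport vesicles and needs adapted COPII carriers. MIA3, which encodes the cargo receptor TANGO1, was at 36.9 and 44.5 CPM in the shGlud1 libraries, against 11.9 and 17.9 CPM in the shNT libraries (1.45, SE 0.15, adjusted p = 3.53e-20, edgeR). With the length trend removed its rise was 0.98. CREB3L1, a membrane-bound transcription factor of the endoplasmic reticulum that activates collagen I genes in mouse bone, was at 72.3 and 62.3 CPM in shGlud1 against 27.3 and 26.0 CPM in shNT (1.34, SE 0.14, adjusted p = 6.7e-21, edgeR). In both genes the groups were well apart. The COPII coat genes SEC31A (1.18), SEC23A (1.16) and SEC24D (0.90) and the ubiquitin ligase adaptor KLHL12 (0.54) rose, and the coat gene SEC13 fell (-0.57; -0.05 and uncalled with total counts).

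**Figure D4:**
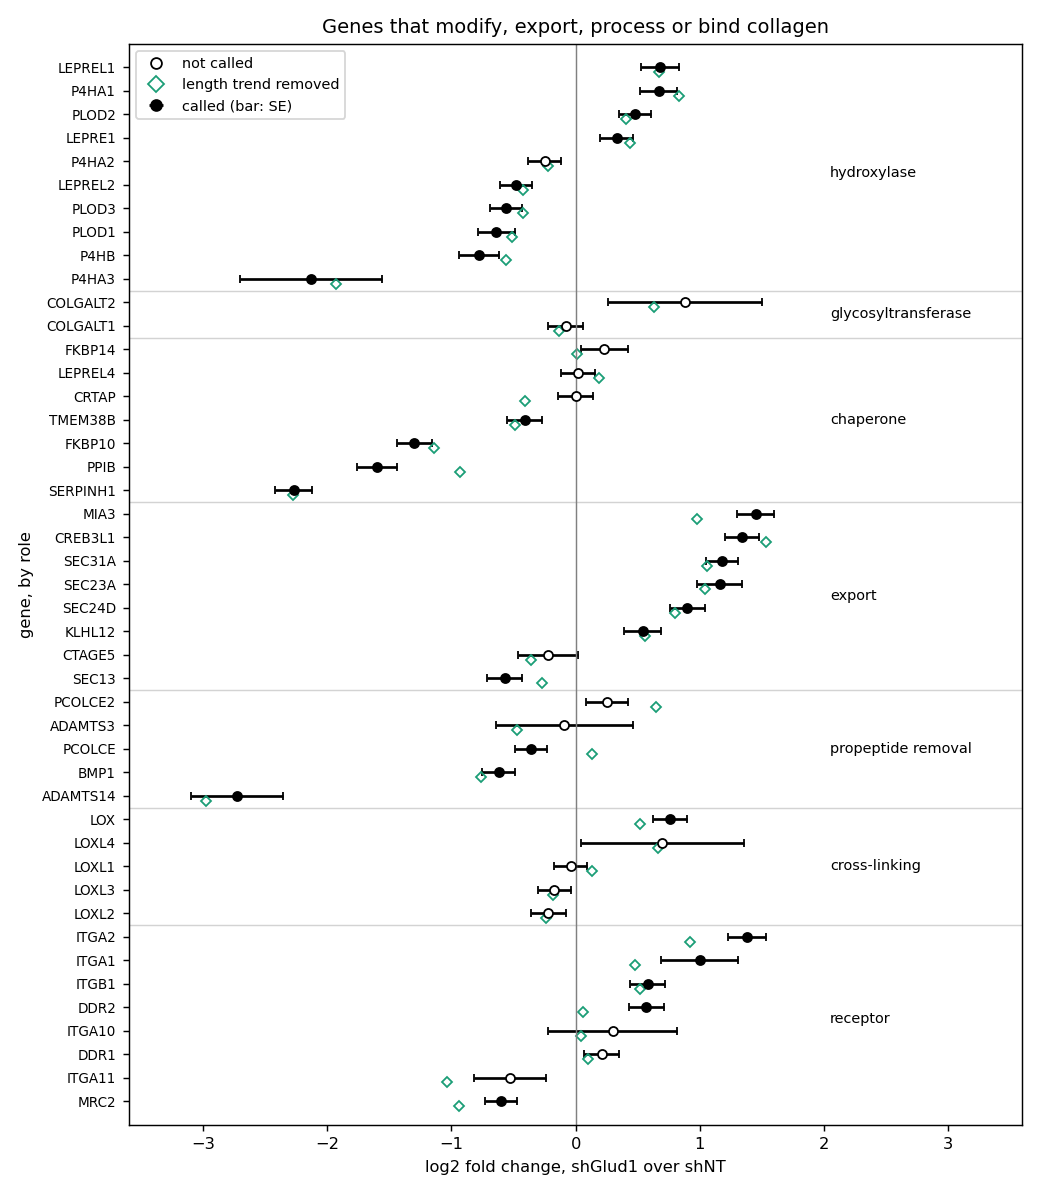
Log2 fold change, shGlud1 over shNT, with SE of the 45 tested genes that modify, fold, export, trim, cross-link or bind collagen, by role, with values after removal of the length trend as diamonds. The chaperone SERPINH1 lies at -2.27 and the export receptor gene MIA3 at 1.45.

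Outside the cell, procollagen ends are cut off by BMP1 and ADAMTS proteases. BMP1 was at 55.0 and 50.5 CPM in shGlud1 against 79.3 and 82.9 CPM in shNT and fell (-0.62, SE 0.13; -0.10 and uncalled with total counts). ADAMTS14 was at 0.800 and 0.651 CPM in shGlud1 against 4.61 and 5.03 CPM in shNT and also fell (-2.73, SE 0.37). PCOLCE, an enhancer of this cut, also fell (-0.36), but its sign turned under removal of the length trend (0.13) and under total counts (0.16). Of the 5 cross-linking oxidase genes 1 rose and 0 fell, a called share of 20.0% against 61.0% of all genes. LOX rose (0.76, SE 0.14, or 0.52 with the length trend removed), at 35.5 and 40.9 CPM in shGlud1 against 23.4 and 21.9 CPM in shNT. With total counts 4 of the 5 were called as higher, against 51.9% of all genes. LOXL2, the most abundant of them, was at 322 and 309 CPM in shGlud1 and at 407 and 330 CPM in shNT and was not called (-0.22, adjusted p = 0.161, edgeR).

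Among the 8 tested collagen receptors 4 rose and 1 fell, a called share of 62.5% against 61.0% of all genes. After removal of the length trend 2 rose and 2 fell, against 32.2% and 23.9% of all genes. Under total counts 5 rose and 0 fell, against 51.9% and 13.7% of all genes. The integrin subunit gene ITGA2 was at 37.5 and 44.0 CPM in the shGlud1 libraries, against 15.5 and 15.9 CPM in the shNT libraries (1.38, SE 0.15, adjusted p = 1.06e-18, edgeR). With the length trend removed its rise was 0.92. Its partner ITGB1 (0.58) and the fibrillar collagen receptor kinase DDR2 (0.57) rose, as did ITGA1 (1.00), and DDR2 was at 0.06 and ITGA1 at 0.48 with the length trend removed, both then uncalled. ITGA11, an integrin subunit gene, was not called (-0.53, adjusted p = 0.0983, edgeR), but was called as lower after removal of the length trend (-1.04, adjusted p = 0.000564). MRC2, the uptake receptor that clears collagen fragments, was at 75.7 and 68.6 CPM in shGlud1 against 116 and 102 CPM in shNT and fell (-0.60, SE 0.13), and was at -0.08 with total counts.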

How the data were processed

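Poly-A RNA of 4 U87 libraries (2 shGlud1, 2 shNT) was made into TruSeq V2 libraries and sequenced from both ends, per the labels' protocols; that kit keeps no strand information. The authors deposited expected counts per gene, of which 20.1% of values above 0 were not whole. Bowtie 0.12.2 and mm8 are named in the submitters' processing notes, yet all 57820 rows carry human Ensembl IDs, so the build is uncertain, and the counting program is not given in the sources used here. Counts were rounded. In edgeR 4.0.16 (R 4.3.3) genes were filtered with filterByExpr (minimum count 10), scaled with TMM factors (1.15 and 1.24 for shGlud1, 0.826 and 0.845 for shNT) and tested with the robust quasi-likelihood test, after a check on simulated data. Each SE was taken as the absolute fold change over root F. Counts within each group differed beyond sampling noise (chi-square per degree of freedom 15 for shGlud1 and 5.81 for shNT), so no library was treated as a repeat deposit and each entered as a separate sample, which does not show separate cultures. Intervals and limits cover counting error only. Lengths and gene positions came from GENCODE 29 (GRCh38), matched by Ensembl ID for 97.6% of tested genes. The length trend was fitted per library by lowess (span 0.3) against the longest transcript of each gene. Every tested collagen gene is named, and up to 2 genes that rose and 2 that fell by lowest p for each role of the collagen-making list, with further list genes chosen after their values were seen. The members, lists and tests were chosen with earlier results of these data known. Alternatives were DESeq2 1.42.0, limma-voom (limma 3.58.1), other scalings, other filters, a replicate block and leaving out each library. Figures were drawn with matplotlib 3.10.9.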

Additional observations from a re-analysis of the deposited data

How the results depend on the processing

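Of the 25 tested collagen genes 9 kept their direction and their side of the threshold under all 15 alternatives in which they were tested: COL1A2, COL5A2, COL6A2, COL6A3, COL12A1, COL13A1, COL20A1, COL26A1 and, uncalled, COL4A4. After removal of the length trend 14 of 25 kept both, 5 collagen genes rose and 7 fell, and with a replicate block added to it 15 kept both and 6 rose. With the trend on median transcript length removed instead, 23 of 25 kept both, 10 rose and 6 fell. Leaving out 1 library at a time gave 6 to 10 collagen genes that rose. With total counts 7592 genes rose and 2000 fell, 3 collagen genes fell, and 26 genes of the collagen-making list rose and 6 fell. The log2 ratio of summed levels was then 0.14 for all collagen genes, 1.09 for fibrillar, 0.96 for basement membrane, 0.02 for collagen VI and 0.33 for other types, against -0.38, 0.57, 0.44, -0.50 and -0.19 with TMM factors. Of called genes, COL16A1 turned to 0.09 with total counts and COL4A6 to -0.11 with the trend on median transcript length removed, a form added after seeing the data. Of uncalled genes, COL6A1 turned to 0.34 with total counts. With the length trend removed, without and with a replicate block, COL5A1 turned to -0.23 and -0.24, COL4A2 to -0.39 and -0.38, COL4A3 to -0.36 and -0.45, COL22A1 to -0.11 and -0.12, and COL17A1 to -0.13 in both. COL4A2 was also at -0.05 with RLE factors and with DESeq2 and at 0.00 just below zero with the filter of 1 CPM, and COL4A3 at -0.09 with limma-voom. Leaving out each library gave -0.21 to 0.25 for COL4A2, -0.82 to 0.68 for COL4A3 and -0.04 to 0.49 for COL22A1. The causes were not tested. A replicate block alone changed no collagen call (10 rose and 6 fell). Same-numbered libraries deviated together only weakly (correlation 0.0409, which 2 libraries a group make equal for both numbers), so the numbers were not treated as pairs. Where leaving out a library left a single one in a group, that library is assumed to vary like the others. Depth limits the 19 untested members and the size of the falls of COL20A1 and COL26A1, which passed the filter only through their shNT counts.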
